A study of Rattus norvegicus with 43 samples.

Results

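The comparison described here sets rats fed fish oil against rats fed corn oil 12 h after an injection of azoxymethane, and its samples were taken by the diet and time in the labels. It holds 14 of the 43 arrays of the series, 7 per diet, from 10 of its 29 rats. All were weanling male Sprague Dawley rats, all received the carcinogen at 15 mg/kg, and the tissue was colonic mucosa. The bracketed animal numbers give 5 rats per diet, corn oil rats 102, 103, 104, 105 and 106 and fish oil rats 201, 202, 203, 205 and 206. Rats 103, 104, 202 and 206 were hybridised a second time, and their arrays were averaged, so that n is the number of rats throughout. Olive oil rats at 12 h (5 rats) are set beside these 10 rats. So are corn oil and fish oil rats labelled 10 wk (5 and 4 rats). Those rats and the olive oil rats labelled 10 wk also entered the normalization, the probe filter and the shared fit behind each p. The treatment protocol describes a second injection for the late rats and counts 9 wk from it. Neither the share of fat in the diets nor the hour of collection is given in the labels, and no untreated colon was used.

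Corn oil is rich in linoleic acid, an n-6 polyunsaturated fatty acid, and fish oil carries the long-chain n-3 fatty acids eicosapentaenoic and docosahexaenoic acid. Fatty acids of both families bind PPAR transcription factors, which control genes of lipid handling and oxidation, and they are the substrates from which prostaglandins and leukotrienes are made. Azoxymethane is activated to a methylating agent that damages DNA in crypt cells, and in rodents the hours after injection bring a p53 response and apoptosis of damaged cells. The series title names the initiation stage of colon cancer and asks how dietary fat modifies the expression signature there.

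Levels are log2 intensities after background correction and quantile normalization across all arrays, so that a difference of 1 is a 2-fold difference of intensity. Differences are fish oil minus corn oil, fitted with limma over all 6 groups of the series, with Benjamini-Hochberg adjustment over the 6381 probes tested. Of the 10 colonocyte markers tested, 9 lay at or above the 86.4th percentile of tested genes in these rats, with Car2, a carbonic anhydrase of surface colonocytes, at the 99.1st. Tff1, a trefoil peptide best known from stomach, lay at the 30.9th.

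Some arrays stood apart in ways that cross the diets, and they are described before the results because the results lean on them. Corn oil rat 102 had the dimmest array, with a median net signal of 163 against 177 to 605 on the other 13 arrays, and it lay farthest from the other rats (median SD of the log2 difference 0.504, against 0.335 to 0.428). With rat 103 it lay at the end of the leading principal component, which held 29.0% of the variance. Repeat arrays of the same rat differed too, most of all in fish oil rat 202. Its arrays, the first of which lies in set 2 below, differed by over 1 log2 unit for 528 probes. The counts were 161, 32 and 134 in rats 103, 104 and 206. Over the whole series, 52 tested probes differed by more than 2 log2 units between arrays of one rat in at least 2 rats. All 43 arrays were clustered on these probes without use of the diet, and the tree was cut into 5 array sets, a number set by choice. The sets hold the repeat arrays of rats 103, 104, 202 and 206 apart. That is favoured by the choice of probes, which were picked for differing between arrays of one rat. Set 1 held corn oil rats 102 and 103 and fish oil rat 206, set 2 held corn oil rats 103 and 104 and fish oil rats 201, 202, 203 and 205, and set 3 held corn oil rats 104, 105 and 106 and no fish oil rat. The other arrays of rats 202 and 206 fell in sets 4 and 5. The labels name no such sets. They were read from the intensities, after the data had been seen, and are used as a technical grouping. Array set and diet were therefore partly aligned, and for each leading gene the difference is also given with array set as a block, in a fit that keeps the rat as a random block, and within set 2 alone (2 corn oil against 4 fish oil rats).

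No probe passed an adjusted p of 0.05 in limma's test of fish oil against corn oil (0 of 6381, 0%). The smallest adjusted p was 0.126. Before adjustment, 528 probes had a p under 0.05 (8.27%), 269 with the higher level in fish oil rats (4.22%) and 259 with the lower (4.06%), where 319 would be reached by 5% of probes. With array set as a block the same count was 256. Among 4431 genes with a probe of their own, 357 lay under 0.05 (8.06%), 168 higher and 189 lower (3.79% and 4.27%). Under the block, fitted to the same rats, 101 of the 357 stayed under 0.05 with the same sign (28.3%). The share over all genes, which includes them, was 3.97%. The 357 were chosen by p in these same arrays, so a higher share among them is built in and is no replication. The groups of rats did not overlap for 95 probes (1.49%), higher in fish oil rats for 0.721% of probes and lower for 0.768%. Among genes the groups did not overlap for 58 (1.31%), 25 higher (0.564%) and 33 lower (0.745%). The median size of the difference over probes was 0.12 on the log2 scale, with a median standard error of 0.14, and 21 probes exceeded 1. Below, the 12 genes of smallest p in each direction are given as values, since none passed the adjusted test.

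Fabp4 stood first. It encodes the fatty acid binding protein of adipocytes, a cytosolic lipid chaperone that macrophages and endothelial cells also make, and it is a known PPAR target. Its level was 6.60, 6.46, 6.93, 7.13 and 6.63 in corn oil rats 102 to 106, and 8.78, 8.33, 7.73, 7.78 and 7.67 in fish oil rats 201, 202, 203, 205 and 206. Every fish oil rat lay above every corn oil rat. Rat 103 was at the floor of the scale on both of its arrays, so its level is an upper bound. Spots exceeded the authors' noise level on 7 of 7 fish oil arrays and on 4 of 7 corn oil arrays. The means were 8.06 ± 0.48 (SD, n = 5) and 6.75 ± 0.27 (SD, n = 5), a fitted difference of 1.31 (SE 0.25), or 2.48-fold, with an adjusted p of 0.126. Because the corn oil mean includes the floored rat 103, these sizes are lower limits as far as that rat goes. The order held on single arrays: the lowest fish oil array, 7.58, lay above the highest corn oil array, 7.13. Repeat arrays differed by 0.10 in rat 104 and 0.19 in rat 206, but by 1.09 in rat 202. With array set as a block the difference was 1.34 (SE 0.29, adjusted p = 0.519), and within set 2, where the floored array is 1 of 2 corn oil values, it was 1.30 (SE 0.34). Fabp4 passed limma's test when only the first array of each rat was used (adjusted p = 0.0453), where no corn oil rat was in set 2. It also passed when late fish oil rat 233 was left out of the shared fit (adjusted p = 0.0103), with the difference still 1.31. It passed under no other alternative and with no other rat left out. Leaving out each early rat in turn gave differences from 1.13 to 1.41.

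**Figure D1:**
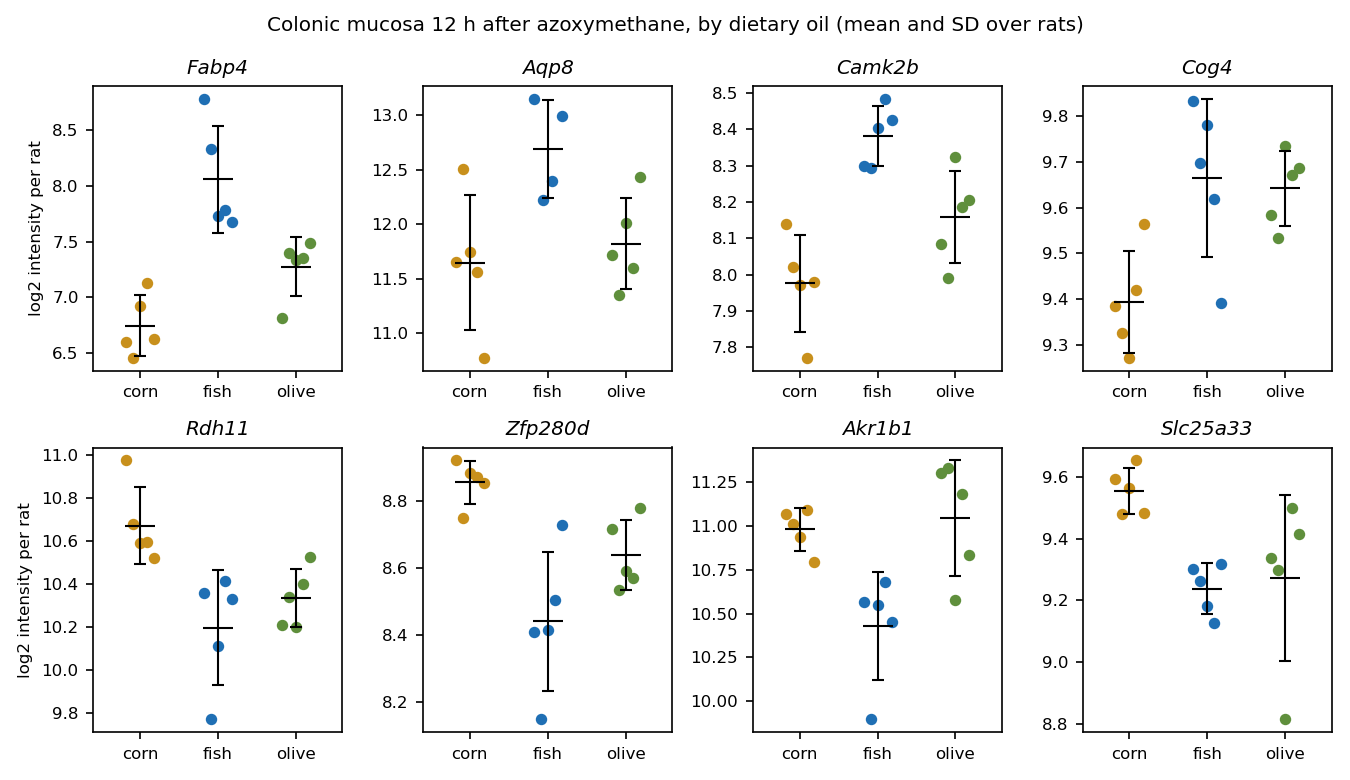
Each point is the log2 intensity of 1 rat at 12 h, by dietary oil (n = 5 per oil, 4 fish oil rats for Aqp8), with the mean and SD over rats; the axes do not start at 0. For Fabp4, Camk2b, Rdh11, Zfp280d, Akr1b1 and Slc25a33 the fish oil and corn oil rats did not overlap, while for Aqp8 and Cog4 they did.

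Adipoq, the adipocyte hormone adiponectin, was the other adipocyte marker at an unadjusted p under 0.05. It stood at 7.30, 6.93, 7.30, 7.20 and 7.18 in the corn oil rats and at 7.30, 8.85, 7.84, 8.13 and 7.07 in the fish oil rats. Fish oil rats 202, 203 and 205 lay above all corn oil rats and rats 201 and 206 did not, while rat 201 had the highest Fabp4. The difference was 0.66 (SE 0.31, adjusted p = 0.593), and 0.40 without rat 202. The adipocyte list had 4 tested members of 11, and the other members, Pparg and Cidea, stood at -0.27 and -0.24, with another Pparg probe at -0.03. The mean level of the list ranged from 8.64 to 9.19 over the corn oil rats and from 8.89 to 9.66 over the fish oil rats. That mean includes Fabp4 itself, so it is not separate from the Fabp4 difference. Among markers of other cells that make Fabp4, 7 of 8 macrophage and granulocyte markers and 3 of 4 endothelial markers had negative differences, with medians of -0.20 and -0.12. With array set as a block the macrophage median was -0.29, while the endothelial median turned to 0.04 and only Pecam1 of its 4 genes was negative, so no direction is given for endothelium. The endothelial gene Vwf (-0.65) is one of the 52 probes that define the array sets. In mucosa RNA, more cells of a type and more RNA per cell cannot be told apart, and the part of adipose tissue in the Fabp4 difference was not tested.

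Aqp8, which encodes a water channel of surface colonocytes, stood at 11.65, 12.51, 11.75, 11.56 and 10.77 in corn oil rats and at 13.15, 12.22, 12.40 and 12.99 in fish oil rats 202, 203, 205 and 206. The spot was missing in rat 201. Fish oil rats 202 and 206 lay above all corn oil rats, and corn oil rat 103 lay above fish oil rats 203 and 205. The means were 12.69 ± 0.45 (SD, n = 4) and 11.65 ± 0.62 (SD, n = 5), a difference of 1.04 (SE 0.28, 2.06-fold, adjusted p = 0.378). It was 0.78 (SE 0.29) with the array set block and 0.65 (SE 0.45) within set 2.

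Camk2b, a subunit gene of the calcium and calmodulin dependent kinase II, was the other gene with 5 rats per diet and no overlap among the 12 with higher levels in fish oil rats. Its levels were 8.14, 8.02, 7.97, 7.77 and 7.98 in corn oil rats and 8.30, 8.29, 8.40, 8.48 and 8.43 in fish oil rats. The gap between the groups was small, and the fish oil rats varied less (SD 0.08 against 0.13, n = 5 each). The difference was 0.41 (SE 0.11), with an adjusted p of 0.378, and 0.40 (SE 0.12) with the block.

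Several other of these 12 genes kept most of their size with array set as a block. Cog4, a subunit of a tethering complex of the Golgi, stood at 0.27 (SE 0.08) and at 0.26 with the block. Ablim1 and Tlnrd1, which encode actin-binding proteins, stood at 0.37 and 0.38, and at 0.32 and 0.29 with the block. For each of the 3 genes, 4 of 5 fish oil rats lay above every corn oil rat and rat 206 did not. Others shrank. Gfpt2, an enzyme gene of the hexosamine pathway, went from 0.56 to 0.23, and the melatonin receptor gene Mtnr1b from 0.38 to 0.18. Pgap6 was measured in only 2 rats of each diet and is not compared further.

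Among genes with lower levels in fish oil rats, Rdh11 had the smallest p. It encodes a microsomal retinol dehydrogenase that acts on retinal and other aldehydes. It stood at 10.97, 10.68, 10.59, 10.60 and 10.52 in corn oil rats and at 10.36, 9.77, 10.11, 10.42 and 10.33 in fish oil rats. All fish oil rats lay below all corn oil rats, with rat 205 and corn oil rat 106 nearest to each other. The difference was -0.47 (SE 0.11, 1.39-fold, adjusted p = 0.268), -0.47 (SE 0.14) with the array set block and -0.49 (SE 0.30) within set 2. The value within set 2 leans on fish oil rat 202, which read 9.385 on its set 2 array and 10.155 on its repeat.

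Akr1b1, which encodes aldose reductase, an enzyme that reduces glucose to sorbitol and also clears aldehydes from lipid peroxidation, had the largest difference among the 12 lower genes whose groups did not overlap. Corn oil rats stood at 11.07, 11.01, 10.94, 11.09 and 10.79, and fish oil rats at 10.57, 9.90, 10.55, 10.68 and 10.45. The lowest value came from rat 202, whose arrays gave 9.10 and 10.69. The difference was -0.55 (SE 0.14, 1.47-fold, adjusted p = 0.268), and -0.65 (SE 0.20) with the block. Another probe for Akr1b1 gave -0.34 (adjusted p = 0.400).

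Zfp280d, a zinc finger gene, stood at 8.92, 8.75, 8.88, 8.87 and 8.85 in corn oil rats and at 8.41, 8.15, 8.41, 8.51 and 8.73 in fish oil rats. The groups were apart, but rat 206 lay just under the lowest corn oil rat. The lowest value came from rat 202, whose arrays gave 7.68 and 8.615. The difference was -0.41 (SE 0.10, adjusted p = 0.268), and -0.32 with the block. Slc25a33 and Ndufaf7 also had no overlap, at -0.32 and -0.35. Slc25a33 encodes a mitochondrial carrier of pyrimidine nucleotides and Ndufaf7 an assembly factor of respiratory complex I. With the block they stood at -0.24 and -0.14.

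A pair of inflammasome genes was among these 12. Nlrp6 encodes an innate immune sensor of the intestinal epithelium, and Pycard the adaptor ASC through which such sensors recruit caspase-1. Nlrp6 stood at 12.52, 12.01, 12.46, 12.09 and 12.38 in corn oil rats and at 12.02, 11.67, 11.59, 11.98 and 12.00 in fish oil rats. Pycard stood at 11.56, 11.09, 11.66, 11.45 and 11.26 in corn oil rats and at 11.16, 10.83, 10.71, 11.07 and 10.99 in fish oil rats. In each gene, 4 of 5 fish oil rats lay below every corn oil rat, and rat 201 overlapped corn oil rat 103. The differences were -0.44 (SE 0.11, adjusted p = 0.268) for Nlrp6 and -0.45 (SE 0.12, adjusted p = 0.378) for Pycard. They were -0.32 (SE 0.20) and -0.38 (SE 0.18) with the block. In rat 202 the repeat array was higher than the first by 1.60 for Nlrp6 and 1.36 for Pycard.

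The remaining genes of this direction were Nt5c, a cytosolic nucleotidase gene, at -0.54 (SE 0.14), Cyb5a, which encodes the electron carrier cytochrome b5, at -0.33 (SE 0.10), Akap12, a scaffold of protein kinase A, at -0.73 (SE 0.22), and the phosphatase gene Mdp1 at -0.43 (SE 0.12). Adjusted p-values were 0.268 for Nt5c and 0.378 for the others. With array set as a block Nt5c, Cyb5a and Akap12 stood at -0.46, -0.30 and -0.50, and Mdp1 at -0.19. For Cyb5a the arrays of fish oil rat 202 gave 11.49 and 12.78.

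Some of the largest differences followed the array set. Atp2a2, the calcium pump of the endoplasmic reticulum, had the largest fitted difference of the 24 genes, 2.27 (SE 0.63, adjusted p = 0.378). Its levels per rat were 7.26, 8.97, 8.67, 7.21 and 7.22 in corn oil rats and 10.51, 10.50, 10.63, 10.36 and 8.67 in fish oil rats. On single arrays, however, corn oil rat 103 read 7.34 on its first array and 10.60 on its repeat, and corn oil rat 104 read 6.99 and 10.36. Fish oil rat 206 read 10.23 and 7.11. Arrays of the same rat thus gave levels more than 3 log2 units apart. Every array of sets 1 and 3 among these rats read low, but the only fish oil array among them was the set 1 array of rat 206. With array set as a block the difference was -0.09 (SE 0.12), and within set 2 it was 0.07 (SE 0.17). The Atp2a2 probe is one of the 52 that define the array sets, as is that of Prep below. The loss of their differences with the block or within a set is therefore partly built in. Rgs4 and Dmac2l are not among the 52.

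The G protein regulator gene Rgs4 and Prep, which encodes a prolyl peptidase, behaved alike. Rgs4 was at the floor on all 5 corn oil arrays of sets 1 and 3 and on the set 1 array of fish oil rat 206, and it read 8.23 and 8.16 on the set 2 arrays of corn oil rats 103 and 104. Its difference went from 1.41 (SE 0.34) to 0.25 (SE 0.12) with the block, and that of Prep from 1.16 (SE 0.32) to 0.00 (SE 0.12), where the sign also turned (-0.003). Dmac2l, a gene of a mitochondrial ATP synthase associated factor, read between 8.74 and 8.94 on the 3 arrays of set 3 and between 7.35 and 7.89 on all others. Its difference went from -0.68 (SE 0.17) to -0.06 (SE 0.09). Rat 104, with an array in each of sets 2 and 3, read 7.75 and 8.74. Dmac2l passed limma's test without corn oil rat 103 (-0.87, adjusted p = 0.0101) and with the first array of each rat (-0.76, adjusted p = 0.0477). It also passed without corn oil rats 102 and 103 (-1.07, adjusted p = 1.8e-05), where every corn oil rat left had an array in set 3.

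**Figure D2:**
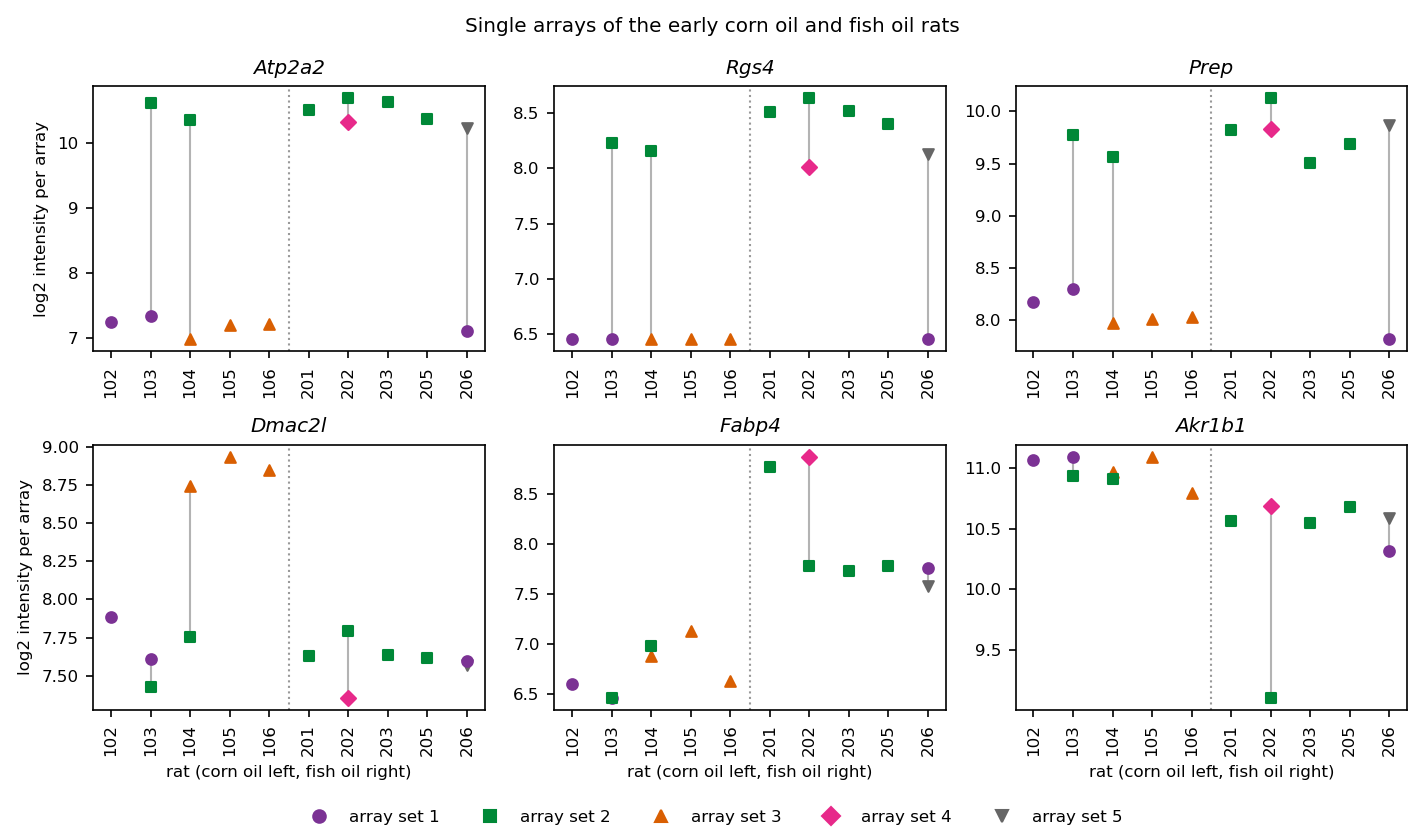
Log2 intensity on each of the 14 single arrays, by rat, with symbols for the array set and grey lines joining arrays of the same rat; the axes do not start at 0. Atp2a2, Rgs4 and Prep read low on every array of sets 1 and 3 and high on sets 2, 4 and 5, and Dmac2l read high on set 3, whereas Fabp4 separated the diets on every array.

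Over the 24 genes, 22 kept their sign with array set as a block, 12 kept over 75% of their size and 8 kept under 50%. Of the 23 genes measured within set 2, 22 had the same sign there and 15 kept over 75% of their size. The 24 genes were chosen by p on data that include these same arrays, so agreement in sign is expected. The counts with the block and within set 2 are therefore no separate test, and the shares over all genes are not given. No probe passed in the blocked fit (0 of 6381, smallest adjusted p 0.519, 256 at an unadjusted p under 0.05). Among the 21 probes with a difference over 1, 12 were among the 52 that define the array sets, and 14 differed by over 1 between the repeat arrays of rat 103 or 104, as 2.90% of all tested probes did.

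**Figure D3:**
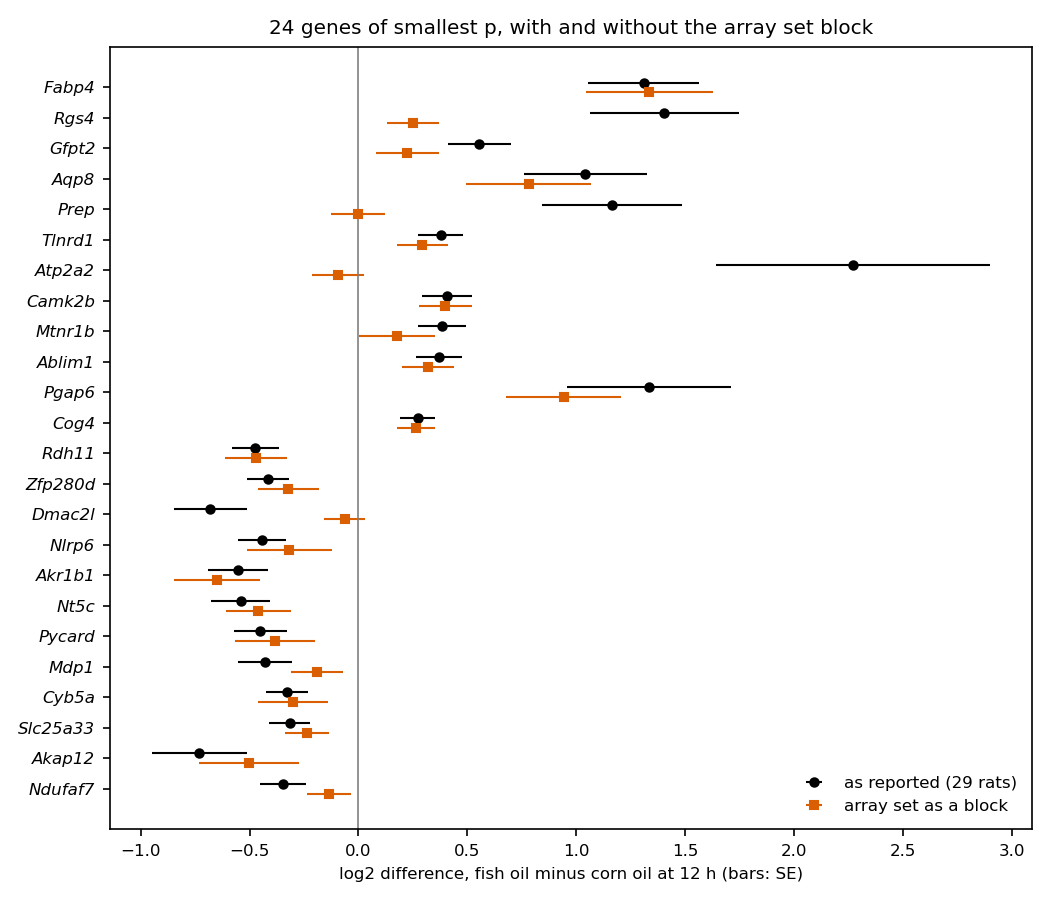
Fitted log2 difference, fish oil minus corn oil at 12 h, with its standard error, for the 12 genes of smallest p in each direction, as reported (circles) and with array set as a block (squares). Fabp4, Camk2b, Cog4, Rdh11 and Akr1b1 stay within 0.10 of the reported value, and Atp2a2, Prep and Dmac2l lie near 0 with the block.

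Genes of lipid handling were read in lists. Over all 4431 genes the median difference was -0.01, with 2106 positive (47.5%), and that is the background for each list below; no member of any list passed the adjusted test. Of 15 tested genes of mitochondrial fatty acid oxidation, 12 had positive differences and the median was 0.09. Cpt1a, whose enzyme carries long-chain fatty acids into the mitochondrion, stood at 11.11, 11.61, 11.68, 11.53 and 11.23 in corn oil rats and at 11.67, 12.04, 11.47, 11.47 and 11.78 in fish oil rats. Those groups overlapped widely, and the difference was 0.26 (SE 0.12, adjusted p = 0.593). Its partner Cpt2 stood at 0.28 (SE 0.15). Each was 0.17 without 1 rat, fish oil rat 202 for Cpt1a and corn oil rat 102 for Cpt2. Ucp2, an uncoupling protein, and Echs1, an enoyl-CoA hydratase, stood at -0.26 and -0.16, but another Ucp2 probe gave 0.00.

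Of 11 peroxisomal genes 7 had positive differences (median 0.08). Crot, which makes carnitine esters of shortened acids, and the peroxisome import receptor gene Pex5 stood at 0.35 and 0.23, but at 0.09 and 0.05 with array set as a block. The list of ketogenesis genes and PPAR targets leaned the other way, with 8 of 10 negative and a median of -0.32, which was -0.17 with the block. It also holds genes of the PPAR receptors and a coactivator, so its median is not that of PPAR targets alone. Its highest member was Fabp1 at 0.40, and Fabp4 is not in it. The receptor genes Ppard, Pparg and Ppargc1a, a coactivator, stood at -0.49, -0.27 and -0.37. The other Pparg probe gave -0.03, and Ppard stood at -0.28 without fish oil rat 201. Cd36, a fatty acid transporter gene, is one of the 52 probes that define the array sets. Its fitted difference of -1.45 went to 0.14 with the block, with 3 fish oil and 2 corn oil rats at the floor, and another Cd36 probe gave 0.33, so no direction is given for it. Acox3 of the peroxisomal list, also one of those 52 probes, went from -1.04 to -0.08 in the same way.

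In lipogenesis and desaturation 9 of 13 genes were positive (median 0.08), among them malic enzyme (Me1, 0.26) and Acsl3 (0.30). Another Me1 probe gave 0.00, and Me1 was 0.16 without fish oil rat 201 and Acsl3 0.18 without corn oil rat 102. Corn oil rats 102 and 103 both had low Acsl3, 11.55 and 11.67. Corn oil rats 104, 105 and 106 stood at 12.215, 12.39 and 12.32, within the fish oil range of 12.14 to 12.64. In cholesterol synthesis 10 of 13 were positive (median 0.07), but 6 of 13 with array set as a block (median -0.01). Idi1, the isopentenyl diphosphate isomerase of that pathway, stood at 10.57, 10.18, 10.65, 10.66 and 10.41 in corn oil rats and at 11.15, 10.74, 11.08, 11.10 and 10.69 in fish oil rats. The groups did not overlap, although the difference of 0.46 had an SE of 0.26 in the fit over all groups (adjusted p = 0.634). Another Idi1 probe gave 0.40. Lipid uptake genes other than Fabp4 and Cd36 included Apoa1 and Fabp1 at 0.40 each, Fabp1 at 0.25 without fish oil rat 201 (list median 0.00, 8 of 15 positive).

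The eicosanoid list was mixed, with 8 of 14 positive and a median of 0.04. Ptgds, a prostaglandin D synthase gene, stood at 0.61 (SE 0.18) and at 0.05 with the array set block. Alox5ap, whose product presents arachidonic acid to 5-lipoxygenase, stood at -0.34 (SE 0.16), and at -0.22 with the block, while another probe of the gene gave -0.08. Pla2g4a, the phospholipase that releases arachidonic acid, stood at 0.23 and 0.08. Hpgds was measured in 2 rats of each diet.

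Genes of antigen presentation and markers of T cells and macrophages had mostly negative differences. All 6 tested genes of MHC class II antigen presentation were negative, with a median of -0.29, and the block gave -0.46. RT1-Da, a rat class II chain, stood at 12.79, 12.94, 12.71, 12.58 and 11.68 in corn oil rats and at 12.75, 12.02, 11.04, 11.97 and 12.05 in fish oil rats. Corn oil rat 106 lay low among its group and fish oil rat 201 high, and the groups overlapped (difference -0.57, SE 0.35, adjusted p = 0.650). The invariant chain gene Cd74 stood at -0.44 (SE 0.32). Without fish oil rat 203 RT1-Da stood at -0.34 and Cd74 at -0.22, and without corn oil rats 102 and 103 the list median was -0.17. Of 7 T and NK cell markers 6 were negative (median -0.17), and of the 8 macrophage and granulocyte markers 7. The mean level of the macrophage list ranged from 8.69 to 9.28 over corn oil rats and from 8.29 to 9.27 over fish oil rats, lowest in rat 203, which also had the lowest class II level. The part of the cell make-up in the class II values was not tested.

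S100a9, a calcium-binding protein gene of neutrophils, leaned the other way. It stood at 8.08, 7.82, 7.34, 8.23 and 8.94 in corn oil rats and at 7.97, 9.87, 8.53, 8.87 and 8.85 in fish oil rats. The difference was 0.73 (SE 0.27, adjusted p = 0.513), and 1.11 (SE 0.30) with the block, with corn oil rat 106 above 4 of the fish oil rats. It was 0.47 without fish oil rat 202. Genes of acute inflammation were positive in 8 of 13 (median 0.15), Cd14 among the negative ones at -0.45, and interferon response genes in 12 of 17 (median 0.08), with Rsad2 and Usp18, both interferon-induced, at 0.58 and 0.52. Rsad2 was highest in fish oil rat 201 (11.40) and stood at 0.31 without it.

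Genes that answer DNA damage differed little in the middle of their lists. The p53 targets had a median of -0.03 (5 of 12 positive), apoptosis regulators 0.00 (7 of 15) and DNA repair genes 0.01 (10 of 17). Plk2, a kinase gene induced by p53, stood at 9.36, 8.84, 8.34, 8.98 and 9.44 in corn oil rats and at 8.27, 8.55, 8.62, 8.53 and 8.35 in fish oil rats. The fish oil rats lay close together and below 4 of the corn oil rats, with rat 104 among them. The difference of -0.53 (SE 0.17, adjusted p = 0.378) was -0.38 with the block and 0.07 within set 2, where rat 104 is 1 of the 2 corn oil rats. Perp, a p53 target of cell adhesion, stood at 0.21 with no overlap between the groups. Of 15 cell cycle genes 12 were positive (median 0.14), with the proliferation marker Mki67 at 0.38 (SE 0.20) and Tk1 at 0.35, and Pcna at -0.23. With array set as a block Mki67 stood at 0.20, Tk1 at 0.16 and Pcna at -0.04. Fish oil rat 203 had the highest Mki67 (11.12) and Tk1 (8.31), and without it they stood at 0.18 and 0.21.

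In the stress lists, 15 of 20 genes of the unfolded protein and amino acid response were negative (median -0.11), 10 of 14 immediate early and heat shock genes (median -0.17) and 14 of 20 antioxidant genes (median -0.12). The antioxidant median was -0.03 without corn oil rats 102 and 103 and 0.00 within set 2, and the immediate early median was -0.04 within set 2. Herpud1, which serves degradation of misfolded proteins at the endoplasmic reticulum, was the one of these whose groups did not overlap (-0.37, SE 0.18), and the disulfide isomerase gene Pdia3 stood at -0.30, with another probe at 0.17. Junb, an AP-1 subunit gene, stood at -0.45 (SE 0.14, adjusted p = 0.388), at -0.24 with the block and at -0.02 within set 2. Of 5 clock genes, Dbp had the largest difference: 9.20, 9.89, 10.39, 9.78 and 9.97 in corn oil rats and 9.72, 9.69, 8.98, 9.20 and 8.83 in fish oil rats. The groups overlapped through rat 102, and the difference was -0.56 (SE 0.20, adjusted p = 0.446), close to the blocked value of -0.59.

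Of 17 xenobiotic enzymes 11 were positive (median 0.05). Cyp3a18, a cytochrome P450 gene, stood at 7.61, 7.59, 7.74, 7.84 and 8.05 in corn oil rats and at 8.67, 8.39, 8.11, 8.30 and 7.97 in fish oil rats. Fish oil rats 201, 202, 203 and 205 lay above all corn oil rats. Its difference of 0.52 (SE 0.16, adjusted p = 0.378) was 0.63 (SE 0.15) with the block. Ugt2b1, a glucuronosyltransferase gene, stood between 11.76 and 12.18 in corn oil rats and at 8.91, 10.82, 11.42, 11.88 and 11.24 in fish oil rats, a difference of -1.20 (SE 0.48, adjusted p = 0.547) which was -0.71 without rat 201. Among 19 transport genes (10 positive, median 0.03) Aqp4, another water channel gene, stood at 0.52 (SE 0.21). Lists of oxidative phosphorylation, glycolysis, ribosomal proteins and Wnt signalling had medians of -0.05, -0.04, 0.00 and -0.02.

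**Figure D4:**
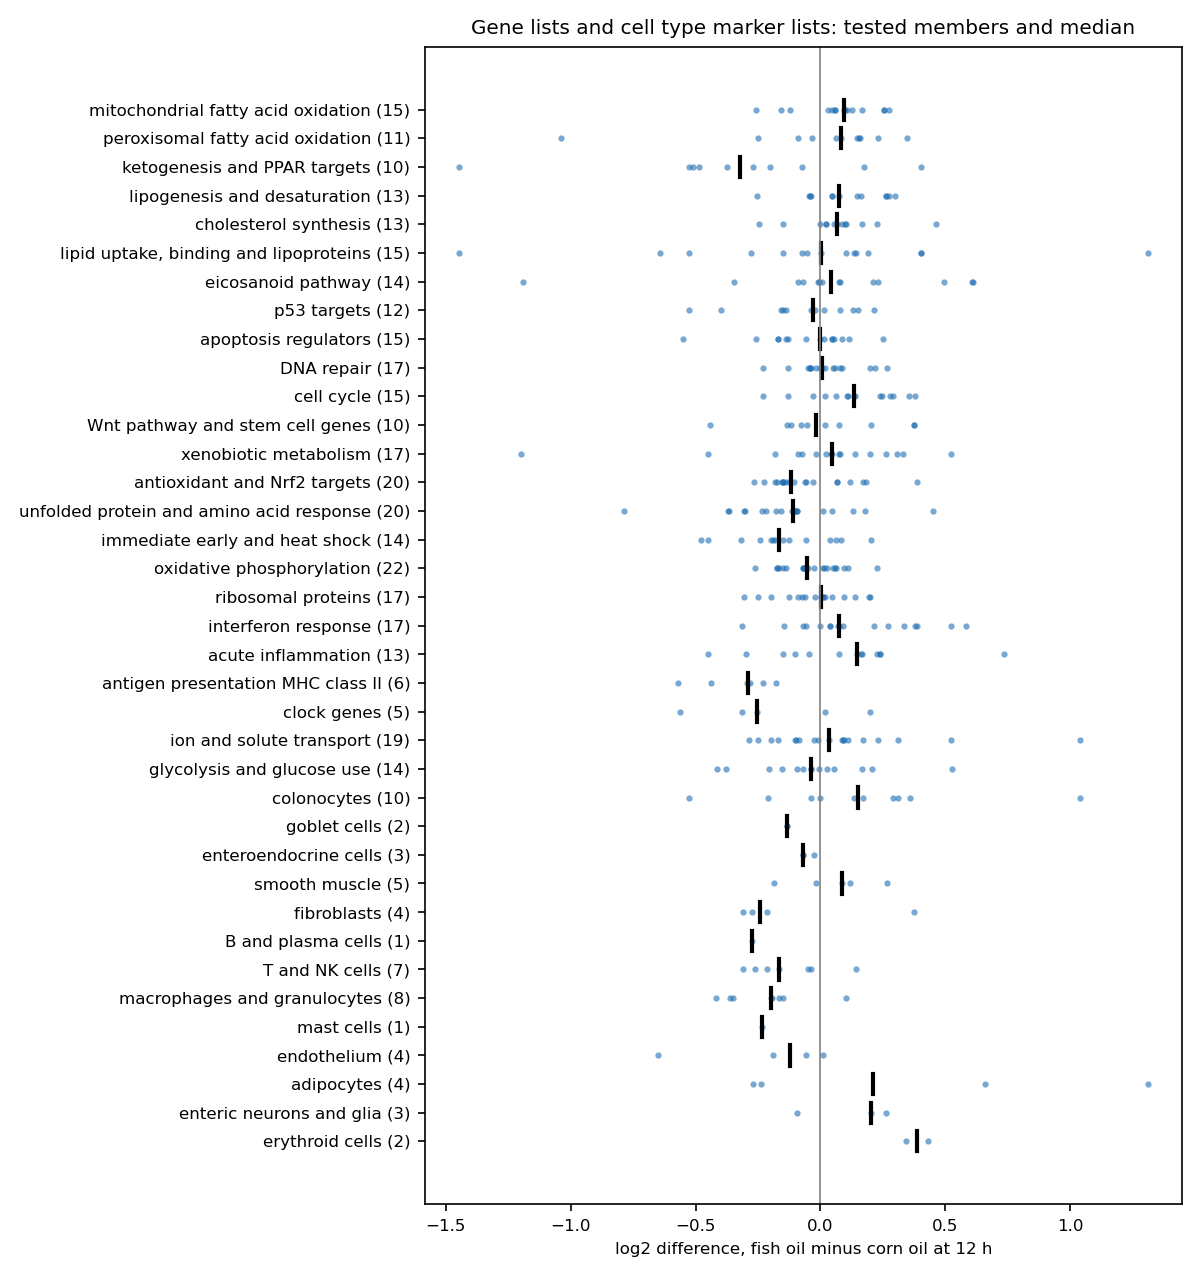
Log2 difference, fish oil minus corn oil at 12 h, of each tested member of the 24 gene lists and 13 cell type marker lists (points) with the list's median (bar); the number of tested members stands in brackets. Medians of lists with at least 10 members lie between -0.32 and 0.15, and the median over all tested genes is -0.01.

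Other marker lists gave medians of 0.15 for colonocytes (6 of 10 positive), -0.13 for goblet cells (2 tested), -0.07 for enteroendocrine cells (3), 0.09 for smooth muscle (5), -0.24 for fibroblasts (4), 0.20 for enteric neurons and glia (3) and 0.39 for erythroid cells (2). Without corn oil rats 102 and 103 the neuron and glia median turned to -0.09 and the erythroid median was 0.07. Jchain, the one plasma cell marker tested, stood at -0.27 (-0.04 without corn oil rat 104) and the mast cell tryptase gene Tpsb2 at -0.23.

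The late rats give the same contrast in other animals. For no probe did the fish oil minus corn oil difference differ between 12 h and 10 wk by limma's interaction test (0 of 6381, smallest adjusted p 0.964, with 321 at an unadjusted p under 0.05, 5.03%). Of the 24 genes, 13 had the same sign at 10 wk (54.2%), a share no higher than the 59.1% of all genes. Of the 24, 7 had the same sign with an unadjusted p under 0.05 at 10 wk (29.2%), against 7.47% of all genes. They were Fabp4, Aqp8, Camk2b, Mtnr1b, Akr1b1, Nt5c and Pycard. The 24 were chosen by a p from the shared fit, whose residual variance is pooled over early and late rats. Genes of low variance are thus favoured at both times. The higher share by p may be partly built in and is no separate test.

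Fabp4 stood at 7.59, 6.85, 7.09, 6.74 and 7.16 in late corn oil rats and at 8.83, 7.15, 8.32 and 8.43 in late fish oil rats. Of the late fish oil rats 3 lay above every late corn oil rat, and rat 233 lay among the corn oil rats. The late difference was 1.10, close to the early 1.31, and the difference between them was 0.21 (SE 0.37, adjusted p = 0.987). Akr1b1 stood at -0.44 at 10 wk and Mtnr1b at 0.48. Camk2b and Aqp8 stood at 0.30 and 0.70, Nt5c at -0.31 and Pycard at -0.29. None of these 7 passed the adjusted test at 10 wk, where 4 probes passed (0.0627%), for Ctsc, Arfip1, Top2b and Abi1. By contrast Rdh11 and Zfp280d stood at -0.10 and 0.05 at 10 wk, and Slc25a33 at 0.01.

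**Figure D5:**
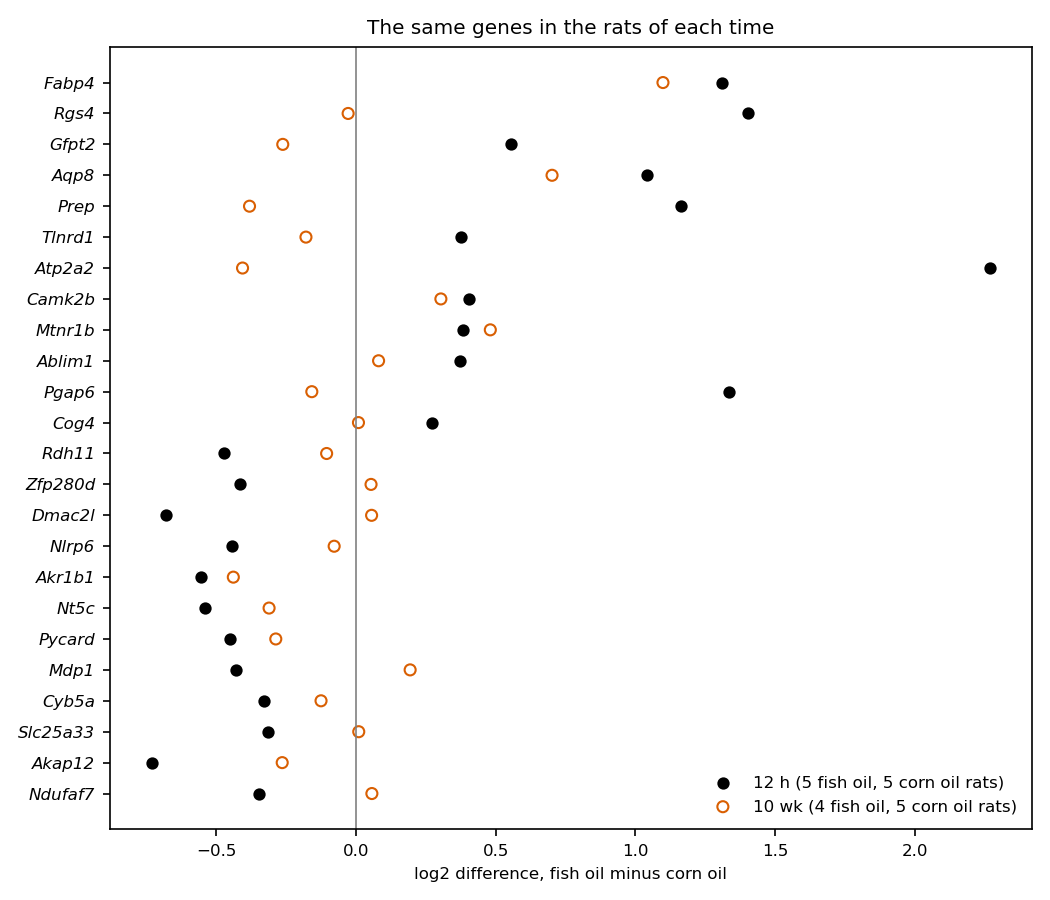
Fitted log2 difference, fish oil minus corn oil, of the same 24 genes in the 10 rats at 12 h (filled) and in the 9 rats at 10 wk (open). Fabp4, Aqp8, Camk2b, Mtnr1b, Akr1b1, Nt5c and Pycard have the same sign at both times with an unadjusted p under 0.05 at 10 wk, and Atp2a2, Prep and Gfpt2 have opposite signs.

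The comparisons of fish oil with corn oil and with olive oil at 12 h share the fish oil rats, so values are only set side by side. No probe passed for fish oil against olive oil (0 of 6381, smallest adjusted p 0.255, with 484 at an unadjusted p under 0.05, 7.59%). Olive oil rats averaged 7.28 ± 0.27 (SD, n = 5) for Fabp4, between the corn oil and fish oil means, and fish oil minus olive oil was 0.78 (adjusted p = 0.540). Akr1b1 averaged 11.05 ± 0.33 in olive oil rats, near the corn oil mean of 10.98, and fish oil minus olive oil was -0.62 (adjusted p = 0.279). That mean was split by array set. Olive oil rats 301, 302 and 305, with arrays in set 4 only, stood at 11.30, 11.33 and 11.18. Rats 304 (set 5) and 306 (set 2) stood at 10.58 and 10.83. Array set and diet were thus partly aligned here too, and the values against olive oil are given without the block. For Rdh11 the olive oil mean, 10.33 ± 0.14, lay nearer the fish oil mean of 10.20, and fish oil minus olive oil was -0.14. Fish oil minus olive oil was 0.87 for Aqp8, 0.53 for Mtnr1b, 0.22 for Camk2b and 0.02 for Cog4. Of Atp2a2, Rgs4 and Prep, which followed the array set, the olive oil rats had levels near those of the fish oil rats.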

How the data were processed

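Colonic mucosa RNA was hybridised as biotin-labelled cRNA to 1-colour CodeLink arrays, per the labels. The deposited intensity columns used were spot mean and local background median, per the file headers. Missing spots were left out. In the deposited normalized intensity, 2725 probes carry 1 constant value in at least 1 diet, so it served as an alternative only. Background was corrected by normexp (offset 50), arrays were quantile normalized, values under the 10th percentile (log2 6.46) were set to it, and log2 was taken. Repeat arrays were averaged per rat. The test took the 6381 of 8452 probes (75.5%) that exceeded the 30th percentile (log2 7.66) in 4 or more rats. All 29 rats in 6 groups entered 1 fit in limma 3.58.1 (R 4.3.3), with 23 residual degrees of freedom, tested on simulated data. The number of rats limits precision. The platform annotation named 6252 probes with 1 symbol, 75 with several and 2125 with none, and the brightest probe stands for a gene. Named genes are the 12 of smallest p per direction and up to 4 members of smallest p per list. The comparison and the lists were chosen with earlier results of these data known, and the array sets, blocked fits and settings without rats 102 and 103 were added after seeing the data. Alternatives covered scaling, background, floor, filter, deposited values, single arrays, weights, scan class (spot and background area), array set and each rat left out. No 2 arrays held identical values. Genome positions and probe sequences were not used here.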

Additional observations from a re-analysis of the deposited data

Results flagged for a closer look

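Each gene given in the report was examined within its group of 5 rats for a rat far from the others, and 27 of 300 such groups held one (9%). The criterion, Dixon's 95% critical value, is set so that chance marks about 1 in 20 groups of independent normal values. That rate was not measured for these genes, some of which were chosen by their p or have values at the floor, so the 9% is not read as an excess. Fish oil rat 206 accounts for 7 of them, rats 203 and 106 for 4 each, and rats 105 and 202 for 3 each. All values are log2 levels, with the range of the other 4 rats in brackets, and no explanation was weighed.

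In rat 206, whose arrays fell in sets 1 and 5, Rgs4 stood at 7.30 (8.32 to 8.52) and Atp2a2 at 8.67 (10.36 to 10.63). Hk2, a hexokinase gene, was also low there at 9.02 (10.29 to 10.49). Cd36 stood high at 8.44 (6.46 to 6.71), as did Vwf of endothelium at 8.10 (all others at the floor of 6.46), Cnn1 of smooth muscle at 8.06 (6.46 to 6.64) and Pcna at 10.17 (9.64 to 9.78). In rat 203, the heat shock gene Hspa8 was low at 12.30 (13.93 to 14.45) and Atp5f1d, an ATP synthase subunit gene, at 12.27 (12.74 to 12.92). The repair gene Rad23b was high there at 12.07 (11.54 to 11.62), as was the collagen gene Col1a1 at 9.03 (8.61 to 8.72).

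In rat 202 the clock gene Bmal1 stood at 11.40 (10.92 to 11.00), the sulfotransferase gene Sult1a1 at 7.26 (6.46 to 6.60) and the glial gene S100b at 9.22 (8.46 to 8.65). Bak1, an apoptosis effector gene, was low in rat 201 at 6.76 (8.35 to 8.83). Gstp1, a glutathione transferase gene, was low in rat 205 at 13.61 (14.004 to 14.015).

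Among corn oil rats, rat 106 had low Ucp2 at 10.51 (11.04 to 11.25), RT1-Da at 11.68 (12.58 to 12.94) and Il2rg at 8.65 (9.32 to 9.57), and high Aqp4 at 7.72 (6.79 to 7.05). Rat 105 had low Slc9a3, a sodium and proton exchanger gene, at 12.65 (13.18 to 13.39), and high Ceacam1 at 11.94 (11.20 to 11.40) and S100b at 9.06 (8.66 to 8.74). Rat 104 had the goblet cell gene Tff3 at 14.06 (14.53 to 14.68) and Jchain at 11.29 (10.09 to 10.16). Sult1a1 was low in rat 103 at 6.62 (7.20 to 7.31), and somatostatin (Sst) high in rat 102 at 8.53 (8.02 to 8.14).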

How the results depend on the processing

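The count of 0 probes for fish oil against corn oil at 12 h held under 16 of 19 alternatives, with 42 to 910 probes at an unadjusted p under 0.05. It was 20 with the first array of each rat, 3 with no filter on dim probes (Plpp7, Slc6a6 and an unnamed probe) and 3 without corn oil rats 102 and 103 (Dmac2l, Dffa and an unnamed probe). The 20 included Atp2a2, Prep, Rgs4, Gfpt2, Mdp1, Dmac2l, Ptgds and Fabp4. On first arrays no corn oil rat was in set 2. Leaving out each rat gave 0 to 1, with Dmac2l without corn oil rat 103 and Fabp4 without late fish oil rat 233. For the difference between 12 h and 10 wk the count was 6 with first arrays, 5 within the small ring scan class and 2 without rats 102 and 103, and 0 under the other 15 alternatives and without each rat. For fish oil against olive oil it was 132 with array quality weights and 0 under the other 17 alternatives. It was 0 to 2 without each rat, with Mtnr1b without corn oil rat 105, and Rpa2 and an unnamed probe without olive oil rat 306. No cause of these changes was tested. Of 1133 values of the 24 genes under alternatives, 1093 kept their side of the threshold and direction or moved less than the spread between rats, 30 moved further, 10 newly passed and 6 changed sign. Of 266 list medians 14 moved further and 31 changed sign. Fish oil against olive oil could not be computed within the large ring class. The dimmest arrays, of rats 102 and 103, limit what can be read of low genes. No paired analysis was possible because replicate numbers in the titles mark repeat arrays of one rat, and animal numbers differ between groups.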
